A study of Arabidopsis thaliana with 9 samples.

Results

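The loci described here lie around the centromere of chromosome 3 of Arabidopsis thaliana. They are the probe sets with exactly 1 gene in the platform annotation whose gene symbol is a plain locus id from AT3G29000 to AT3G43999, without AT3G29970. This rule found 271 of the 22746 probe sets tested, each with a different locus, and none was left out for being silent. Locus ids broadly run along the chromosome, so the range spans the pericentromere from its upper to its lower flank. The order of the members by id was not exactly their order by position. RefSeq's table of the TAIR10.1 assembly listed every one of them. It gave 118 of them as protein coding, 149 as pseudogene and 4 as transcribed pseudogene. The latter 153 are called pseudogene types here. The same table lists 1078 loci in the range, 780 of them pseudogene types, so the members are a part of them. Genes of the range that carry a name as their symbol are not among the 271.

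A pericentromere is the stretch of chromosome next to the centromere. In Arabidopsis it is rich in transposons and their remnants and poor in genes, and many transposon copies stand in gene tables as pseudogenes. These sequences are normally kept silent by DNA methylation and by methylation of histone H3 on lysine, and mutants that lose this silencing transcribe some of them. Genes placed among them can still be active.

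The samples were whole plants of a wild-type control (WT-control) and of 2 mutant lines, line774 and line1135, with 3 arrays in each group. Plants were 17 days old, at growth stage 1.04, and had grown on plates of 50 seeds at 21 °C with 16 h of light and 8 h of darkness. The labels give no mutated gene, allele or background for either line, and the same entry for a T-DNA knock-out stands on all 9 samples, control included, so no targeted gene could be checked. The labels do not say whether a line is 1 insertion event, or whether replicates were grown apart. The p-values therefore rest on a spread between samples that may be technical. The series title speaks of epigenetic mutants. The question followed here is which pericentromeric loci differ in each line from the control, and which differ from one line to the other.

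RNA was read on the Affymetrix ATH1 array, which has a set of short probes per transcript. Values are signals, that is linear intensities in arbitrary units, scaled by the authors to a common mean per array. A probe set whose name ends in _at was designed for 1 transcript, while one ending in _s_at or _x_at has probes that also match related sequences. Of the 271 members, 239 end in _at, 16 in _s_at and 16 in _x_at, and the last 2 kinds are given apart as shared-probe members, since their signal need not come from the named locus alone. The background of an array was the highest signal among its 27 probe sets for Bacillus genes, and was 5.36 to 6.63 on control arrays, 8.49 to 10.9 for line774 and 7.54 to 13.4 for line1135. Changes are differences of log2(signal + 16) with the standard error of limma's fit to all 9 arrays. A member was called higher or lower when it changed at least 2-fold on that scale with an adjusted p, over all probe sets, below 0.05. Where no array of the dimmer group was above background, the fold is given as "at least". It then compares the mean log2 signal of the brighter group with the mean log2 background of the dim group's arrays. Group means are given with SD, and n = 3 throughout.

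Most of these loci gave no signal in the control. Only 43 of 271 (15.9%) were above background on all 3 control arrays, against 69.7% of all probe sets tested, and 171 were above it on none. The share was 33.9% for the protein-coding members and 1.96% for the pseudogene types, which were 3 of 153. The median of the control means was 4.69 for the protein-coding members and 1.59 for the pseudogene types, below the lowest background of any array. In line774, 62 members were above background on all 3 arrays, and in line1135 68 were. Among the pseudogene types the number went from 3 for control plants to 21 in line774 and 27 in line1135, while among the protein-coding members it was 40, 41 and 41. Backgrounds were higher in the lines than in the control, which makes the counts in the lines the stricter ones. In line774, 18 members were above background on all 3 arrays where the control was on none (6.64%, against 0.466% of all probe sets), and 3 showed the reverse (1.11%, against 1.03%). In line1135, 20 were gained in this sense (7.38%, against 0.699%) and 3 lost (1.11%, against 0.800%). Line1135 was above background on all 3 arrays and line774 on none for 3 members (against 0.361% of all probe sets), and the reverse held for 0 (against 0.176%). On all 9 arrays, 105 members stayed at or below background, 69 of them pseudogene types.

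A small set of these loci, silent or nearly so in the control, gave signal in the mutant lines. In line774, 18 of the 271 members were called higher (6.64%, where 1.02% of all probe sets were) and 2 lower (where 0.980% of all were). For line1135 the counts were 23 higher (8.49%, against 1.06% of all probe sets) and 1 lower (against 1.22%). At any fold, 25 passed as higher and 4 as lower in line774 (against 6.60% and 6.01% of all probe sets), and 43 and 4 in line1135 (against 6.74% and 6.86%). In line774 the arrays of 51 members lay wholly above the control and those of 12 wholly below (18.8% and 4.43%, against 17.0% and 13.7% of all). In line1135 these were 66 and 11 (24.4% and 4.06%, against 16.5% and 14.4%). Of the members called higher, 17 were higher in both lines, 1 in line774 only and 6 in line1135 only. Both lines were compared with the same 3 control arrays. All 24 had a control mean below 10, with a range of 0.263 to 8.55 and a median of 1.87. Their median was 30.5 in line774 and 58.8 in line1135. The 24 were picked by calls on these same arrays, 6 through line1135 only and 1 through line774 only. These medians therefore describe the picked members and are no separate result. At the offset of 16, a member with a control mean under 16 cannot be called lower, and 234 of the 271 were of that kind, so the small number of decreases says little about the silent loci. The median change over all 271 members was 0.04 in line774 and 0.07 in line1135, beside 0.02 in both over all probe sets.

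**Figure D1:**
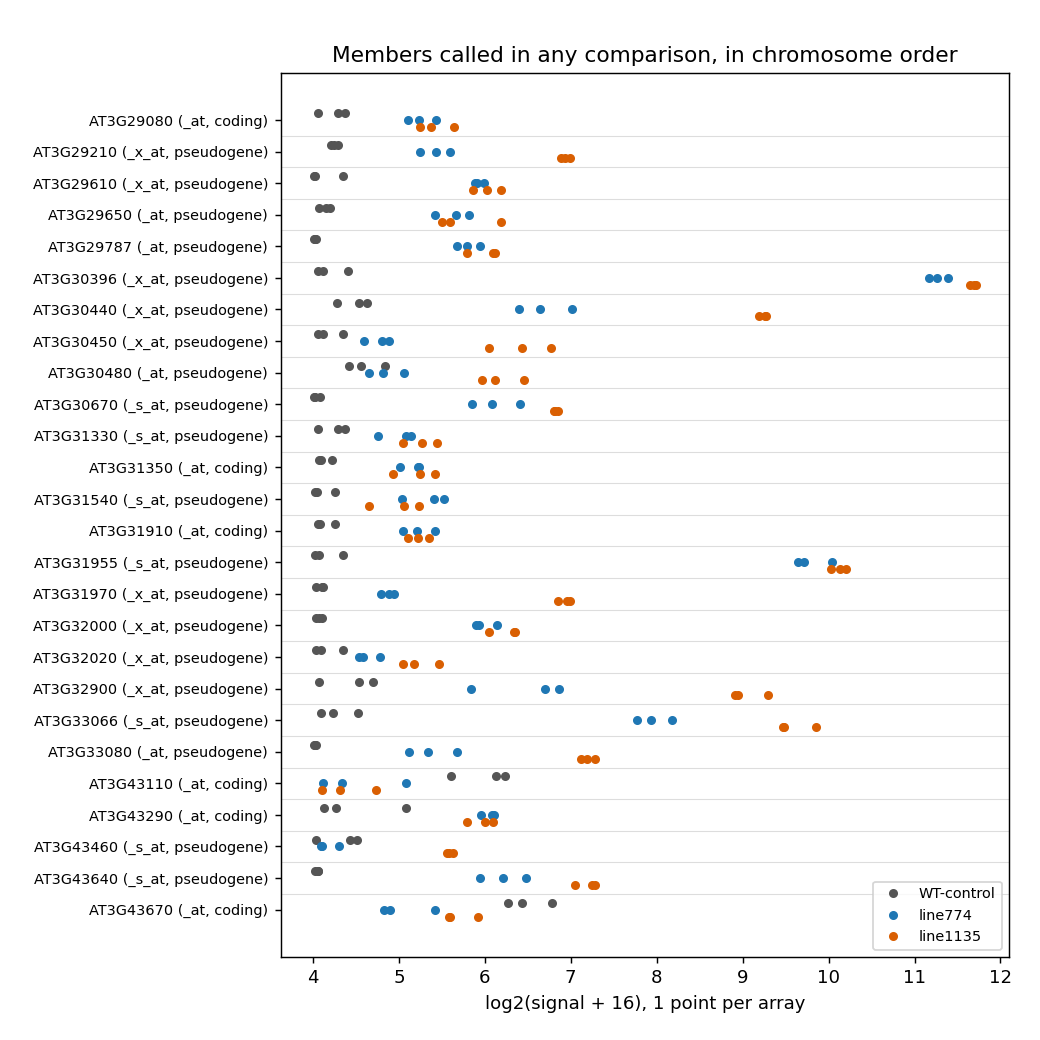
Signal of the 26 members called in any comparison, as log2(signal + 16) on the horizontal axis with 1 point per array, in the order of the loci along chromosome 3. Most control points of 24 members lie at the left edge, near the value of 4 that a signal of 0 would give. Those further right include 1 of AT3G43290, at a signal of 18.0. The control points of AT3G43110 and AT3G43670 lie to the right of both lines.

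Shared-probe members made up most of the increases. In line774, 11 of the 32 shared-probe members and 7 of the 239 _at members were called higher (34.4% and 2.93%), and in line1135 15 and 8 (46.9% and 3.35%). Among all probe sets tested, the corresponding shares were 6.50% and 0.756% in line774 and 9.05% and 0.673% in line1135. All the shared-probe members called higher were pseudogene types. Pseudogene types gave 14 of the 18 members called higher in line774 and 19 of the 23 in line1135, and the other 4 in each line were protein coding and read by _at probe sets. How far related copies elsewhere in the genome contribute to the signal of shared-probe members was not tested.

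AT3G30396, a pseudogene locus read by an _x_at probe set, had the largest bound on its fold in both lines. Its signals were 5.24, 0.640 and 1.39 in the 3 control arrays, 2676, 2442 and 2279 in line774, and 3189, 3305 and 3339 in line1135. All control arrays were at or below background, and the groups do not overlap. The locus was at least 410-fold higher in line774 (adjusted p = 4.51e-12, limma) and at least 547-fold higher in line1135 (adjusted p = 2.46e-12, limma). Every line1135 array lay above every line774 array, yet the difference of 0.41 ± 0.10 between the lines was not called (adjusted p = 0.0585, limma). This one probe set took 23.2% of the summed signal of all members in line774 and 23.5% in line1135, against 0.0365% in the control.

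AT3G31955, a pseudogene locus read by an _s_at probe set, had the next largest bound. Its control signals were 4.31, 0.785 and 0.265, those of line774 1036, 826 and 783, and those of line1135 1166, 1032 and 1110. It was at least 146-fold higher in line774 and at least 184-fold higher in line1135, and the arrays of the lines overlap (difference 0.33 ± 0.12, adjusted p = 0.22, limma). For these 2 loci, then, no call separated the lines.

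AT3G33066, a pseudogene locus with an _s_at probe set, differed between the lines. Control arrays read 1.02, 2.87 and 7.02, line774 arrays 273, 229 and 202, and line1135 arrays 700, 695 and 910. The change was 3.68 ± 0.15 in line774 and 5.32 ± 0.15 in line1135, and line1135 exceeded line774 by 1.64 ± 0.15 (adjusted p = 0.000142, limma). One control array was above background, so no bound is given, and these values hold for the offset of 16.

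AT3G30440 and AT3G32900, pseudogene loci with _x_at probe sets, differed most between the lines on the log2(signal + 16) scale. The signals of AT3G30440 were 3.43, 8.67 and 7.18 in the control, 84.0, 114 and 68.2 in line774, and 596, 603 and 569 in line1135. Those of AT3G32900 were 7.22, 0.770 and 9.94 in the control, 101, 87.6 and 41.4 in line774, and 612, 479 and 465 in line1135. In these loci the 3 groups form 3 separate levels, with line774 between the control and line1135. AT3G30440 changed by 2.21 ± 0.15 in line774 and by 4.76 ± 0.15 in line1135, a difference of 2.56 ± 0.15 (adjusted p = 6.5e-06, limma). AT3G32900 changed by 2.03 ± 0.25 and 4.62 ± 0.25, a difference of 2.58 ± 0.25 (adjusted p = 0.00024, limma).

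The weaker shared-probe loci AT3G43640, AT3G30670 and AT3G29210 followed the same order, with line1135 above line774. AT3G43640, read by an _s_at probe set, had means of 0.506 ± 0.222 for the control, 58.9 ± 14.1 for line774 and 130 ± 11.9 for line1135, and was at least 9.64-fold and at least 21.7-fold higher. AT3G30670, also _s_at, had means of 0.473 ± 0.440, 54.2 ± 13.9 and 97.4 ± 1.84, at least 8.85-fold and at least 16.2-fold higher. AT3G29210, read by an _x_at probe set, had means of 3.04 ± 0.540, 27.1 ± 5.25 and 107 ± 4.29, at least 4.47-fold and at least 17.8-fold higher. The arrays of the lines did not overlap for any of these loci, but only AT3G29210 was called between the lines. Its difference was 1.52 ± 0.13 (adjusted p = 9.91e-05, limma), while AT3G43640 had 0.98 ± 0.15 and AT3G30670 0.71 ± 0.15, short of 2-fold. AT3G32000, with an _x_at probe set and means of 0.763 ± 0.415, 47.8 ± 6.02 and 60.1 ± 8.77, was at least 7.93-fold and at least 9.95-fold higher, with a difference of 0.25 ± 0.14 (adjusted p = 0.438, limma).

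Of the 24 members called higher in either line, 8 had _at probe sets, designed for 1 transcript. Of these, the pseudogene loci AT3G33080 and AT3G30480 were called between the lines, and AT3G30480 is described further below. The signals of AT3G33080 were 0.126, 0.397 and 0.267 in the control, 35.2, 18.7 and 24.6 in line774, and 123, 130 and 140 in line1135. It was at least 4.22-fold higher in line774 and at least 21.8-fold higher in line1135, and the lines differed by 1.82 ± 0.15 (adjusted p = 8.65e-05, limma). The 3 groups do not overlap, so this _at member shows the same order of levels as the shared-probe loci above. Whether its probes match other copies was not checked.

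AT3G29787 and AT3G29650, pseudogene loci of the upper flank, were called higher in both lines. AT3G29787 had signals of 0.196, 0.289 and 0.364 in the control, 45.8, 35.3 and 39.6 for line774, and 53.2, 52.4 and 39.4 for line1135, at least 6.67-fold and at least 7.99-fold higher. AT3G29650 had signals of 1.84, 2.35 and 0.782, then 34.7, 40.3 and 26.7, then 29.5, 57.0 and 32.5, at least 5.57-fold and at least 6.32-fold higher. The arrays of the lines overlap for both, and the differences of 0.19 ± 0.14 (adjusted p = 0.585, limma) and 0.13 ± 0.19 (adjusted p = 0.812, limma) did not pass.

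The 4 protein-coding members called higher, AT3G29080, AT3G31350, AT3G31910 and AT3G43290, were weakly expressed. In AT3G43290 the control arrays read 18.0, 3.22 and 1.48, line774 52.8, 46.2 and 52.0, and line1135 39.5, 52.2 and 48.0, with changes of 1.56 ± 0.22 (adjusted p = 0.00115, limma) and 1.47 ± 0.22 (adjusted p = 0.00152, limma). The control arrays lay below those of both lines, the arrays of the lines overlap, and 1 of the 3 control arrays was above background. AT3G29080 had means of 2.98 ± 2.09, 22.5 ± 4.49 and 27.1 ± 6.33 and was at least 3.70-fold and at least 4.44-fold higher. AT3G31350 (at least 3.27-fold and 3.42-fold) and AT3G31910 (at least 3.56-fold in both lines) reached means of 19.8 to 21.7 from controls under 2. For all 4 the lines differed by at most 0.16 in size, and no difference was called. The calls of AT3G29080, AT3G31350 and AT3G31910 in line774 stood close to the 2-fold limit. That of AT3G29080 was lost without WT-control replicate 2 (log2 change 0.93) or line774 replicate 3 (0.93). That of AT3G31910 was lost without line774 replicate 3 (0.998), and that of AT3G31350 without WT-control replicate 3 (0.999), line774 replicate 1 (0.993) or line774 replicate 2 (0.989). In line1135, the call of AT3G31350 was lost without line1135 replicate 3 (0.96).

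A direct comparison of the lines gave 9 of the 271 members higher in line1135 (3.32%, against 0.435% of all probe sets) and 0 lower (against 0.167% of all, limma). At any fold, 18 members passed as higher (6.64%, against 1.13%) and 0 as lower (against 0.870%). The line1135 arrays lay wholly above those of line774 for 39 members and wholly below for 8 (14.4% and 2.95%, against 8.93% and 9.97% of all). All 9 were pseudogene types, and 7 of them were shared-probe members. Of the 17 members higher in both lines, 5 were further raised in line1135, and these are AT3G29210, AT3G30440, AT3G32900, AT3G33066 and AT3G33080. Of the 6 called in line1135 only, 4 differed between the lines, while the 1 called in line774 only, AT3G31540, did not.

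Those 4 loci are AT3G30450, AT3G30480, AT3G31970 and AT3G43460, and none of them passed both call limits in line774. AT3G31970, read by an _x_at probe set, had signals of 1.27, 1.29 and 0.380 in the control, 13.6, 14.7 and 11.7 for line774, and 109, 99.3 and 111 for line1135. It was at least 17.7-fold above the control in line1135 and differed by 2.06 ± 0.12 between the lines (adjusted p = 6.68e-06, limma). Its line774 arrays were also all above background and above the control, and line774 was at least 2.22-fold higher (adjusted p = 0.00181, limma). It was not called there because the change with the offset of 16 was 0.79 ± 0.12, short of 2-fold.

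AT3G43460, read by an _s_at probe set, was at background in line774. Its signals were 0.455, 6.84 and 5.63 in the control, 3.82, 1.26 and 1.11 in line774, and 32.0, 33.4 and 31.2 in line1135. All line774 arrays were at or below background, and line1135 was at least 3.23-fold above line774 (adjusted p = 0.00031, limma), with a change from the control of -0.16 ± 0.14 in line774 and 1.26 ± 0.14 in line1135. AT3G30450, with an _x_at probe set, had means of 2.14 ± 1.93, 11.3 ± 2.81 and 71.2 ± 21.6 and a difference of 1.65 ± 0.19 between the lines (adjusted p = 0.000787, limma). It was at least 1.84-fold above the control in line774 (adjusted p = 0.0655, limma) and at least 11.5-fold in line1135 (adjusted p = 2.25e-05, limma). AT3G30480, an _at member, had means of 8.55 ± 3.76, 12.9 ± 4.16 and 57.4 ± 13.0 and a difference of 1.34 ± 0.18 (adjusted p = 0.00262, limma). For AT3G30480 the control and line774 arrays overlap, and for AT3G30450 they do not.

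**Figure D2:**
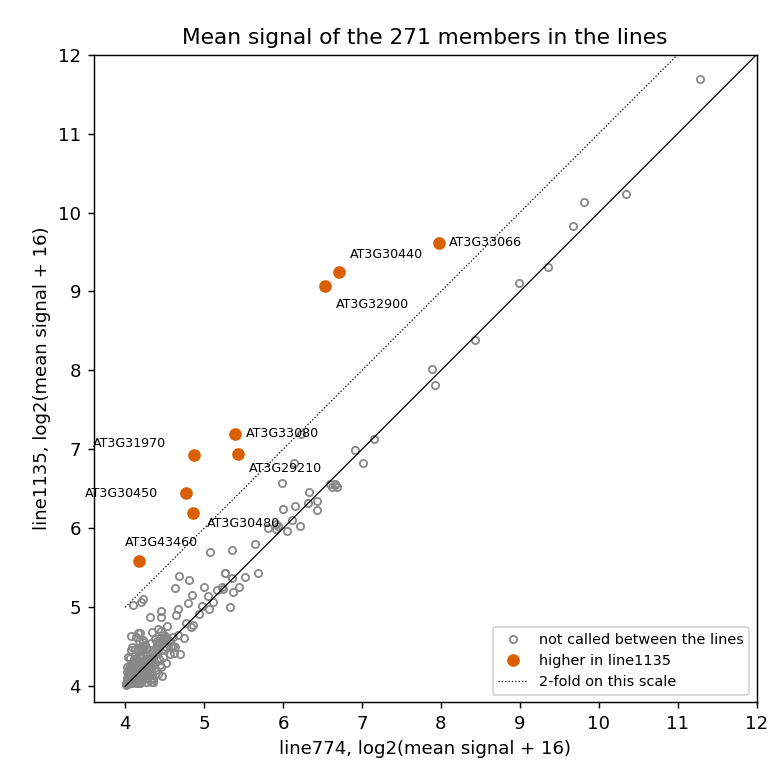
Mean signal of each of the 271 members in line774 (horizontal) and line1135 (vertical), as log2(mean signal + 16), with the line of equality solid and a 2-fold difference dotted. The 9 called members are filled and named, all above the dotted line, and no member is called on the other side.

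Called loci stood in every stretch of the id range that holds members, except AT3G42. From AT3G29 to AT3G33, in order of the leading digits of the id, 5 of 49, 3 of 47, 4 of 24, 2 of 30 and 2 of 5 members were called higher in line774, and 5, 5, 5, 3 and 2 of them in line1135. The 62 members with ids AT3G42000 to AT3G42999 had 0 called higher in either line at 2-fold (limma), and the 54 from AT3G43000 had 2 and 3. Over all probe sets, 1.02% were called higher in line774 and 1.06% in line1135, so 0 of 62 is near that share. The range AT3G42 was not without signal in line1135, where 9 of its 62 members passed as higher at any fold (14.5%, against 6.74% of all probe sets), with 1 of 62 in line774 (1.61%, against 6.60%). These changes differed in size. AT3G42050, with a mean of 742 in the control and 895 in line1135, passed with a change of 0.27 ± 0.07. AT3G42690 and AT3G42710, chosen after their values were seen, are examples with a low control signal and do not stand for all 9. AT3G42690 had means of 4.90 ± 2.87 for the control, 11.9 ± 2.77 for line774 and 24.6 ± 5.07 for line1135, a change of 0.96 ± 0.15 in line1135. AT3G42710 had 2.33 ± 2.07, 1.19 ± 0.301 and 16.8 ± 3.89, and was at least 2.74-fold above the control in line1135 (adjusted p = 0.00117, limma).

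Some of the raised loci followed each other among the measured members. Among the 270 pairs of members that follow each other along the chromosome, 4 had both members called higher in at least 1 line. Whether random placement of the 24 raised members would give more or fewer pairs was not tested. The members are 271 of 1078 annotated loci, so many annotated neighbours were not measured. AT3G30440 and AT3G30450 stand side by side in the RefSeq table with 0 loci between them. The other 3 pairs join AT3G31955, AT3G31970, AT3G32000 and AT3G32020 into 1 run, with 1, 4 and 1 other annotated loci between them. Of this run, AT3G31955 and AT3G32000 were called higher in both lines, with no call between the lines, and AT3G31970 in line1135, where it exceeded line774. AT3G32020, an _x_at member outside the naming rule and chosen after its values were seen, was called in line1135 and had means of 1.95 ± 2.15, 8.87 ± 2.29 and 21.8 ± 5.63.

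**Figure D3:**
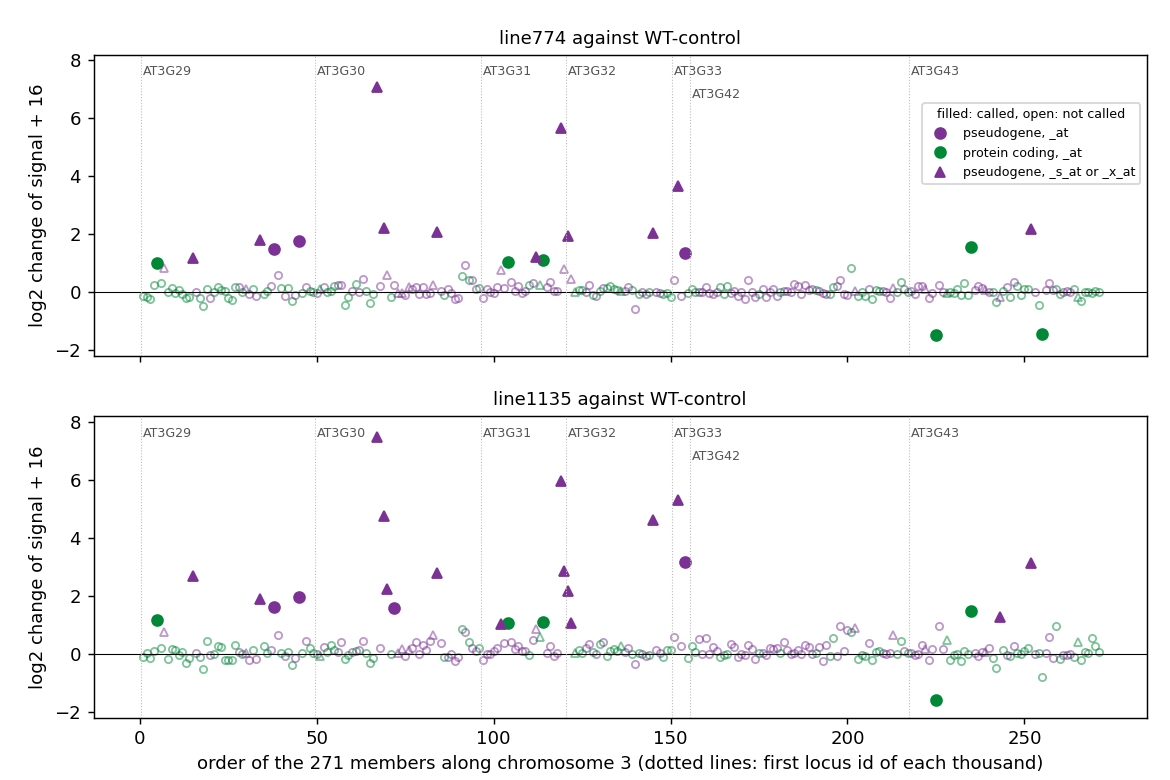
Log2 change of signal + 16 (vertical) of the 271 members against WT-control, by their order along chromosome 3 (horizontal), for line774 above and line1135 below. Purple marks pseudogene types, green protein-coding loci, triangles shared-probe members and filled symbols called members. The large changes are purple triangles, the stretch AT3G42 has no filled symbol, and the filled symbols below 0, 2 for line774 and 1 for line1135, are green and lie under AT3G43.

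The rest of chromosome 3 had a smaller share of increases, but not among its pseudogene types. Outside the range, 2170 probe sets with a plain locus id on chromosome 3 were tested, and 26 (1.20%) were called higher in line774 and 14 (0.645%) in line1135. Among these, the 54 pseudogene types had 10 called higher in each line (18.5%), which is not fewer than the 9.15% and 12.4% of the 153 pericentromeric ones. For the protein-coding loci, the shares outside were 0.757% and 0.189%, against 3.39% in both lines within. Between the lines, 3 probe sets outside the range were higher in line1135 (0.138%), all pseudogene types, and 4 were lower (0.184%), all protein coding. Over all probe sets these shares were 0.435% and 0.167%. These shares are counts side by side, and the differences between them were not tested.

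The summed signal shows the same change at the level of the whole array. The 271 members together took 0.203 ± 0.00439% of the signal of control arrays, 0.327 ± 0.0122% for line774 and 0.423 ± 0.00236% for line1135. The pseudogene types alone took 0.0115 ± 0.00176%, 0.144 ± 0.0146% and 0.239 ± 0.00223%, which is 12.4 times the control level in line774 and 20.7 times in line1135. Without AT3G30396 these were 5.89 and 12.2 times. For the 127 pseudogene types with _at probe sets they were 1.76 and 2.63 times, so most of the rise came through the 26 pseudogene types with shared probes. The protein-coding members took 0.192 ± 0.00607%, 0.184 ± 0.00240% and 0.183 ± 0.00106%, 0.957 and 0.956 times the control level. The arrays of the 3 groups do not overlap for the pseudogene types, and each pair of groups gave p = 0.1 in a two-sided exact permutation test, the smallest that 3 against 3 allows. The protein-coding shares of both lines lay wholly below the control, also with p = 0.1 in that exact test, and overlapped between the lines (p = 1.0, exact test).

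**Figure D4:**
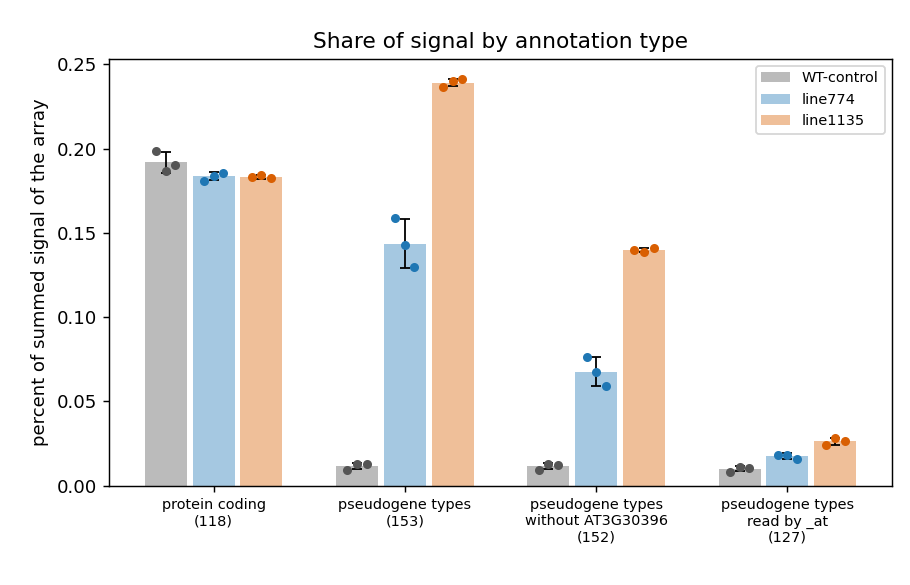
Percent of the summed signal of an array taken by the protein-coding members, the pseudogene types, the pseudogene types without AT3G30396 and the pseudogene types with _at probe sets. Bars are means of 3 arrays, error bars SD and points single arrays. The 3 groups stand apart in order for the pseudogene types, while the protein-coding bars lie between 0.183 and 0.192%.

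AT3G43110 and AT3G43670, both protein coding, were the members called lower. AT3G43110 had signals of 54.3, 59.6 and 32.6 in the control, 1.34, 4.27 and 17.8 for line774, and 3.90, 1.20 and 10.6 for line1135. It changed by -1.48 ± 0.27 in line774 (adjusted p = 0.00435, limma) and was at least 5.12-fold lower in line1135, where no array was above background (adjusted p = 0.00249, limma). AT3G43670, which belongs to the copper amine oxidases, enzymes that oxidise amines such as putrescine, had signals of 94.1, 61.1 and 70.6 in the control, 12.4, 13.9 and 26.9 for line774, and 32.3, 31.8 and 44.4 for line1135. Its change was -1.45 ± 0.19 in line774 (adjusted p = 0.000779, limma) and -0.80 ± 0.19 in line1135 (adjusted p = 0.0199, limma), the latter short of 2-fold. All control arrays of both genes lay above all arrays of the lines, and neither gene differed between the lines by the call (adjusted p = 0.885 and 0.136, limma).

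The members with the strongest signal in the control had no calls. All 9 members with a control mean of at least 100 were protein coding with _at probe sets, and 0 of them were called in any comparison. Over all probe sets, 1.02% were called higher and 0.980% lower in line774, and 1.06% and 1.22% in line1135. At such shares, 0 of 9 says little. At any fold, 1 of the 9 passed in line774 and 3 in line1135 (limma). Of all probe sets, 6.60% passed as higher and 6.01% as lower at any fold in line774, and 6.74% and 6.86% in line1135. The changes of these 9 members ran from -0.47 to 0.11 in line774 and from -0.52 to 0.27 in line1135, with medians of -0.07 and -0.06. The brightest, AT3G30390, a putative amino acid transporter, had signals of 1377, 1201 and 1398 in the control, 1210, 1278 and 1354 for line774, and 1135, 1186 and 1234 for line1135, and the arrays of the 3 groups overlap. AT3G29240 had means of 894 ± 65.1, 641 ± 55.7 and 619 ± 26.2, with changes of -0.47 ± 0.08 (adjusted p = 0.00336, limma) and -0.52 ± 0.08 (adjusted p = 0.00183, limma). AT3G42050, a subunit of the vacuolar proton pump, had means of 742 ± 26.7, 803 ± 65.8 and 895 ± 16.3, with changes of 0.11 ± 0.07 (adjusted p = 0.402, limma) and 0.27 ± 0.07 (adjusted p = 0.0325, limma). AT3G43520 and AT3G32930, the others of the 5 brightest, changed by -0.18 ± 0.10 and -0.05 ± 0.08 in line774 and by -0.06 ± 0.10 and -0.09 ± 0.08 in line1135. AT3G30396, at most 5.24 in the control and at least 2279 in the lines, lies a few ids from AT3G30390, which had no call.

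Rank correlations between arrays were 0.964 to 0.975 within groups and 0.934 to 0.965 between groups. Of 41 listed silencing genes, 1 was matched to a probe set in the annotation used, the DNA demethylase gene DME, and it was not called in any comparison (log2 changes of 0.07 in both lines). The labelled tissue, whole plant, showed both leaf and root markers. The leaf marker RCA, 1 matched of 8 listed, had means of 5684 to 6185, and the 3 root markers matched of 8 summed to 3058 to 3594 per array in the control, 2370 to 3441 in line774 and 2721 to 3473 in line1135. Nearly all of the root sums came from PYK10, with a control mean of 3296, against 30.0 for EXPA18 and 8.73 for EXPA7. The 2 pollen markers matched of 7 summed to 1.86 to 7.13, 8.12 to 13.4 and 1.52 to 10.5, with each probe set above background on at most 1 array of any group. None of the 6 listed seed markers was matched to a probe set. No matched marker was called in any comparison, and the part of tissue makeup in the results was not tested. In whole plants, more cells transcribing a locus and more RNA per cell cannot be told apart.

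The counts rest on the offset. With an offset of 1, 29 and 43 members were higher in line774 and line1135, and with an offset of 64, 4 and 11 were, all 4 and all 11 among those called at 16.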

How the data were processed

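The deposited table holds 1 linear intensity per probe set and array. The submitters' processing notes name MAS5 and GCOS. Version numbers and build: not given in the sources used here. All of the authors' intensity columns had been scaled, with a 2% trimmed mean near 100 on each array. Groups and replicate numbers came from sample titles. From 22810 probe sets, 64 controls were left out and 22746 tested without a filter on low signal. log2(signal + 16) was fitted with 1 mean per group (limma 3.58.1, R 4.3.3) over the 9 arrays together (eBayes with an intensity trend, Benjamini-Hochberg over all probe sets per comparison), tested on simulated data first. Shares of summed signal were compared by exact permutation. The number of arrays limits the precision.

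Gene names came from the platform's annotation (13513 with 1 gene, 503 with several, 8730 unnamed here). The array names no build, so no coordinates are given, and no sequences were used here. Members and lists were chosen with earlier results of these data known. Named with values were, per comparison, up to 8 called _at and 8 called shared-probe members with the largest change, up to 10 called protein-coding members, all called lower, the 5 brightest in the control, and up to 8 called in 1 line that also differed between lines. A rule for members sharing a described family named none, since the tables used here hold no descriptions. Replicate numbers were not taken as pairs. Alternatives were an offset of 1 or of 64, keeping probe sets above the 25th or the 50th percentile of their mean signal, quantile and median scaling, no trend, fits of the compared groups, a replicate block, no minimum fold, adjusted p under 0.01, a background 1.5 times higher and leaving out each array. The share without AT3G30396 was chosen after seeing the data. Plots used matplotlib 3.10.9.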

Additional observations from a re-analysis of the deposited data

Results flagged for a closer look

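The changes of 9 members against the control differed from line to line when line1135 was tested against line774 with limma, all being higher in line1135. On the log2(signal + 16) scale the differences were 2.58 for AT3G32900, 2.56 for AT3G30440, 2.06 for AT3G31970, 1.82 for AT3G33080, 1.65 for AT3G30450, 1.64 for AT3G33066, 1.52 for AT3G29210 and 1.34 for AT3G30480. This order holds for the offset of 16. AT3G31970, for example, had a mean of 13.4 in line774, below the offset, and of 106 in line1135. For AT3G43460 no line774 array was above background, so its fitted 1.42 is left out of the order, and the bound is at least 3.23-fold. Only AT3G33080 and AT3G30480 were read by _at probe sets.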

How the results depend on the processing

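With an offset of 1, 29 members were higher in line774, 43 higher and 2 lower in line1135. With an offset of 64, 4 were higher and 0 lower in line774, 11 higher and 0 lower in line1135, and 5 higher in line1135 than in line774. Above the 50th percentile of mean signal, where 36 members remained to be tested, 9 were higher and 1 lower in line774, and 10 higher and 0 lower in line1135. With no minimum fold, 4 were lower in line774, 43 higher and 4 lower in line1135, and 18 higher in line1135 than in line774. The cause of these shifts was not tested. Leaving out single arrays gave 17 to 18 higher in line774, 22 to 25 in line1135 and 9 to 10 between the lines, with 2, 1 and 0 lower. The share of signal rose by 0.118 to 0.130 percentage points in line774, by 0.217 to 0.222 in line1135 and by 0.0894 to 0.102 between the lines over the same left-out arrays. Without AT3G30396 these differences were 0.0480, 0.120 and 0.0722. Same-numbered arrays of different groups had correlations of deviations from 0.0274 to 0.0894, all positive and all under 0.1, and were not taken as pairs. With the replicate block, all counts were the same as without it, at 18 and 2, 23 and 1, and 9 and 0. No named result or count reversed under any alternative run. Over 3 arrays and near background, changes from a low signal are known only as bounds.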
